A study of Homo sapiens with 6 samples.

Results

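The genes described here are 41 genes of homologous recombination and of the Fanconi anaemia pathway. They were chosen by name, through the gene identifiers in the count table, with earlier results of these data known. All 41 were among the 27745 genes of the table, and all 41 were among the 15372 genes that passed the filter on low counts and were tested.

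Homologous recombination repairs a broken chromosome by copying the missing stretch from an intact sister. The ends are first cut back to single strands, the bared strands then pair with the intact sister, and helicases and nucleases later separate the joined molecules. The Fanconi anaemia pathway handles crosslinks between the strands of DNA: a core complex attaches ubiquitin to the FANCD2-FANCI pair at a stalled fork, nucleases then unhook the crosslink, and the break that results is passed on to recombination. Inherited defects of several of these genes are known for their link to breast cancer.

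RNA-seq was performed on MDA-MB-231, a line of triple-negative breast cancer cells, after infection with a lentivirus. The short hairpin RNAs (shRNAs) sh-MIR100HG-1 and sh-MIR100HG-2, both directed at the long non-coding RNA MIR100HG, were carried in the pLKO.1 vector. The control group was sh-TRC, and the methods do not say what insert it carries. Each group had 2 biological replicates, with 6 libraries in all. The 3 groups shared the cell line, the vector and the infection, so no library came from uninfected cells, and by the methods the cells were collected at a single time after infection. The comparisons ask how the repair genes stand after MIR100HG knockdown, by each shRNA and by both, and whether the shRNAs give the same values.

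The sites in MIR100HG to which the shRNAs are directed were taken from the oligonucleotides of the study, and are shown because the shRNAs differed from each other in the results that follow. Both lie on chromosome 11 (GRCh37, minus strand), the first at chr11:121962132-121962152, within an exon of 32 of 107 annotated MIR100HG transcripts, and the second at chr11:121961961-121961981, within an exon of 30 of them. The capitals mark the word that bases 2 to 8 of the guide strand pair with.
sh-MIR100HG-1 target: ttcctctgtttgtACTTAAAt
sh-MIR100HG-2 target: gagagtgacctacAGAATAAa
The word of sh-MIR100HG-1 was found in the 3′UTR of 7 of the 41 repair genes (17.1%, against 19.2% of 13953 tested genes with an annotated 3′UTR). That of sh-MIR100HG-2 was found in 10 of 41 (24.4%, against 20.3% of the tested genes, and 35.4% of the third of genes with the lowest exon GC content). The 10 were BRCA2, EXO1, FAN1, FANCF, FANCI, MRE11, RAD50, RAD54L, TOPBP1 and TP53BP1. A word is a match of letters and not a site of action.

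Promoters from RefSeq (GRCh38.p14, 250 bases before to 50 bases after the start) were at hand for 36 of the 41 genes, all but RAD54B, NBN, DNA2, WRN and FANCI. The words TTTCCCGC, TTTGGCGC, TTTCGCGC and TTTGCCGC, which factors of the E2F family are known to bind, were searched on both strands, since many repair genes are cell cycle genes. At least 1 of them was in a promoter of 7 of the 36 genes (19.4%), against 6.24% of 11723 tested genes with a promoter. Of all 35116 promoters, where a gene can have more than 1, 3.31% held such a word. The 7 stretches below are 5′ to 3′ on the strand of the gene, with the word or its reverse complement in capitals. For FANCC, whose promoter held a pair of such words, the one nearer the start is shown.
EXO1, chr1:241848197-241848226: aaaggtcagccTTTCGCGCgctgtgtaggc
GEN1, chr2:17753859-17753888: cagttgcggggTTTCGCGCcgccggagtct
FANCD2, chr3:10026424-10026453: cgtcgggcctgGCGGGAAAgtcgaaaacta
TOPBP1, chr3:133661930-133661959: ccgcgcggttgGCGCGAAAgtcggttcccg
XRCC2, chr7:152676102-152676131: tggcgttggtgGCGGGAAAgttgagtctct
FANCC, chr9:95317737-95317766: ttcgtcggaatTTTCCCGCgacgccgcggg
FANCA, chr16:89816801-89816830: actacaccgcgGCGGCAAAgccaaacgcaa
GEN1 and FANCD2 lie on the plus strand, as does EXO1, and TOPBP1, XRCC2, FANCC and FANCA on the minus strand. The words TTTGAA and TTCGAA of the cell cycle homology region were also searched on both strands (TTCGAA is its own reverse complement). They were in a promoter of 5 of the 36 genes (13.9%, against 15.9% of the tested genes). These were BRIP1, FANCC, GEN1, MDC1 and UBE2T.

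The libraries held between 43804736 and 64588388 counts. MIR100HG itself had 41.9 and 58.5 CPM (counts scaled to library size by the TMM method) in the sh-TRC libraries and between 10.4 and 16.6 CPM in the 4 knockdown libraries, with a log2 fold change (log2FC) of -1.86 ± 0.25 (SE) for the mean of both shRNAs. By the edgeR quasi-likelihood test its unadjusted p was 5.6e-05, and its adjusted p (Benjamini-Hochberg over all tested genes) was 0.381. Of the markers of the line, VIM, CD44, CAV1 and AXL were high in every library and PGR was at or near 0, while SPARC was low (1.96 to 6.41 CPM). ESR1 was 2.38 CPM in replicate 2 of sh-TRC and 2.79 in replicate 1 of sh-MIR100HG-1, against 0.120 to 0.590 in the other 4 libraries, and FOXA1 was 1.22 CPM in each of the same pair of libraries, against 0.024 to 0.160. ERBB2, CDH1, GATA3, EPCAM, KRT19, PTPRC and PECAM1, which were also on the list of markers of the line or of other cells, are not given here. The part of the markers in the results was not tested. Library values below are in the order replicate 1, replicate 2.

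In control cells the repair genes were expressed at about the middle of the range of tested genes. As a level per length (TMM-scaled CPM per kilobase of exon, mean of both sh-TRC libraries), the median of the 41 was 3.58, against 4.05 for all tested genes. UBE2T, the ubiquitin-conjugating enzyme that works with the Fanconi core complex, had the highest level, 43.9 ± 2.60 (SD, n = 2). FANCG, a scaffold of that complex, followed with 16.0 ± 2.08, and NBN, which anchors the MRE11-RAD50 nuclease at breaks, with 11.2 ± 2.47. At the other end stood RAD51B, a protein of strand pairing, at 0.720 ± 0.138, RAD54B, a DNA motor protein, at 1.12 ± 0.35, and FANCF, an adaptor of the core complex, at 1.17 ± 0.44. BRCA1 stood at 3.58 ± 0.23 and BRCA2 at 2.22 ± 1.04. Few steps in this order were resolved, since 37 of the 40 pairs of neighbours differed by less than the sum of their SDs. No repair gene was near the detection limit: the lowest count in any library was 135 and the highest 6059.

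**Figure D1:**
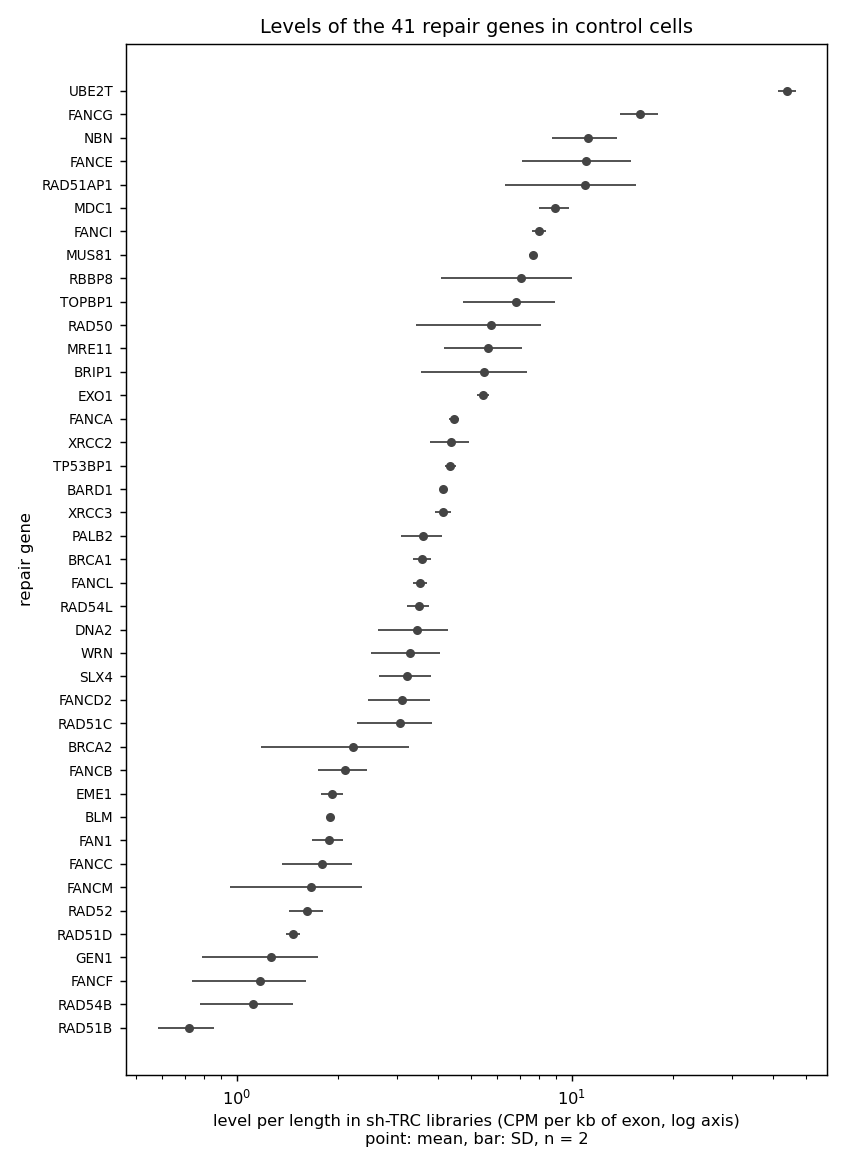
Level per length of each of the 41 repair genes in the sh-TRC libraries, in CPM per kilobase of exon on a log axis, as the mean (point) and SD (bar) of 2 libraries. UBE2T stands apart at 43.9, and the other genes lie between 0.720 and 16.0.

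For the mean of both shRNAs against control, no repair gene passed the test. At an adjusted p at or below 0.05 (edgeR quasi-likelihood test, Benjamini-Hochberg over all 15372 genes) 0 of 41 were called, and so were 0% of all tested genes. The smallest adjusted p of a repair gene was 0.562. At an unadjusted p under 0.05, 0 repair genes were higher, against 3.23% of all tested genes, and 2 of 41 (4.88%) were lower, against 4.44%, so that the share of repair genes was close to that of all genes. The median log2FC of the 41 was -0.12, against -0.04 over all tested genes, and 28 of 41 were below 0 (68.3%, against 54.4%). The number of 2 went to 1 without replicate 1 of sh-TRC or replicate 2 of sh-MIR100HG-1, and to 4 without replicate 1 of sh-MIR100HG-2. No other test that was run called a repair gene at the adjusted threshold in this comparison or for sh-MIR100HG-1 against control. Over all genes, the likelihood ratio test called 109 of 15372 in this comparison, DESeq2 129, and the fit without the filter 392 of 21349. For sh-MIR100HG-1 against control these numbers were 34, 65 and 227. In RNA from bulk cultures, fewer cells of a kind and less RNA per cell cannot be told apart.

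The 2 genes were NBN and FANCD2. NBN had 79.5 and 58.1 CPM with sh-TRC, 40.3 and 68.4 with sh-MIR100HG-1 and 31.1 and 31.2 with sh-MIR100HG-2. Both sh-MIR100HG-2 libraries were below all others, while those of sh-MIR100HG-1 lay on either side of the lower control. Its log2FC for the mean of both shRNAs was -0.74 ± 0.25 (SE), and the edgeR fit gave an unadjusted p of 0.0167 (adjusted p 0.562). FANCD2, which is ubiquitinated with FANCI at blocked forks, had 22.2 and 29.96 CPM with sh-TRC, 22.05 and 20.4 with sh-MIR100HG-1, and 15.3 and 16.9 with sh-MIR100HG-2. All 4 knockdown libraries were below both controls, although the closest pair differed by less than the spread of the controls. Its log2FC was -0.50 ± 0.21, with an unadjusted p of 0.0460 (adjusted p 0.645). The unadjusted p of FANCD2 stayed under 0.05 in 6 of 15 alternative fits, among them 1 of the 6 that left out a library (without replicate 1 of sh-TRC), and that of NBN in 14 of 15.

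FANCD2 was the only 1 of the 41 with all knockdown libraries below both controls, against 9.08% of all tested genes, and EXO1 the only one with all of them above, against 8.4%. EXO1, a nuclease of long-range end resection, had 23.2 and 21.9 CPM with sh-TRC, 26.7 and 36.7 with sh-MIR100HG-1, and 25.3 and 30.2 with sh-MIR100HG-2. Its log2FC was 0.40 ± 0.22 with an unadjusted p of 0.108 in the edgeR fit. For both genes the two-sided exact permutation test of 4 knockdown against 2 control libraries gave p = 0.133, the lowest of any repair gene, where the smallest that the 15 arrangements allow is 0.0667.

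Taken one at a time, the shRNAs gave different pictures. Both comparisons use the same sh-TRC libraries, so their values are set side by side and were not counted against each other. With sh-MIR100HG-1, 0 of 41 repair genes passed the adjusted test (0% of all genes), 2 were higher at an unadjusted p under 0.05 (4.88%, against 3.1% of all genes), 0 were lower (against 3.77%), and the median log2FC was 0.07. With sh-MIR100HG-2, again 0 passed the adjusted test (0% of all genes), 0 were higher (against 3.71%) and 6 were lower (14.6%, against 5.15%). The median there was -0.28, with 32 of 41 below 0 (78.0%, against 54.2% of all genes). The 2 that were higher with sh-MIR100HG-1 were DNA2 (log2FC 0.87 ± 0.28) and FANCM (0.84 ± 0.35). The 6 that were lower with sh-MIR100HG-2 were GEN1 (-1.15 ± 0.42), NBN (-1.14 ± 0.30), BRCA2 (-1.08 ± 0.37), BRCA1 (-0.80 ± 0.33), MRE11 (-0.74 ± 0.26) and FANCD2 (-0.70 ± 0.25). When no filter on low counts was applied, GEN1, NBN and BRCA2 had an adjusted p at or below 0.05 against control with sh-MIR100HG-2, as had 2.42% of 21349 genes. That fit gave RAD51AP1, whose replicates lay far apart, an SE near that of the steady TP53BP1 between the shRNAs (0.31 and 0.28). In the reported fit these were 0.50 and 0.21. Adjusted calls without the filter thus rest little on the replicate spread of each gene. Without replicate 1 of sh-TRC the number of 6 went to 2, and without either replicate of sh-MIR100HG-2 to 11 (replicate 1 left out, of which 10 were lower) or 3 (replicate 2 left out). The 2 higher with sh-MIR100HG-1 became 5 without replicate 1 of sh-TRC and 0 without replicate 2 of sh-TRC. Without replicate 2 of sh-MIR100HG-1, 0 were higher and 1, NBN, was lower.

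**Figure D2:**
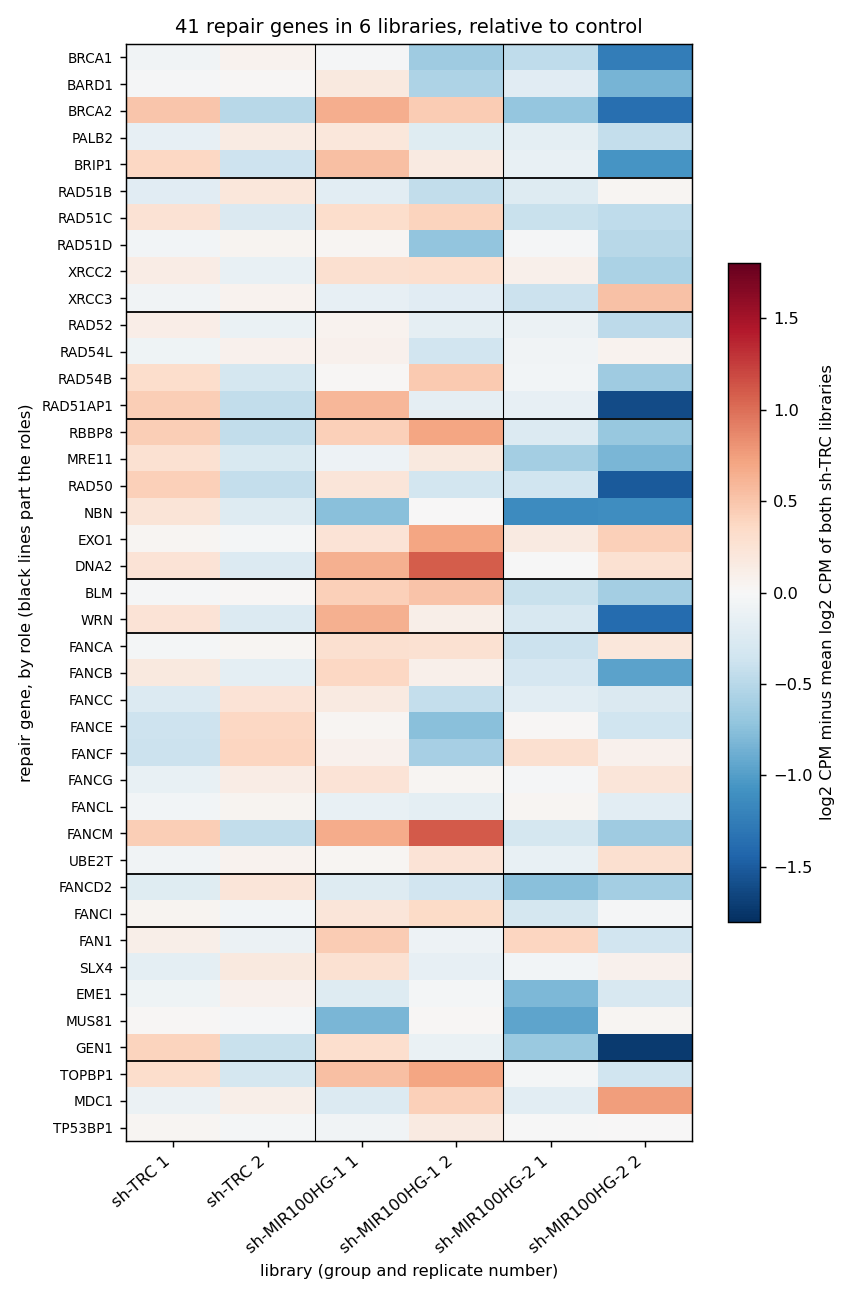
Each of the 41 repair genes (rows, grouped by role) in each of the 6 libraries (columns), as log2 CPM minus the mean log2 CPM of both sh-TRC libraries. The sh-MIR100HG-2 columns are mostly blue, with medians of -0.20 and -0.43, and those of sh-MIR100HG-1 mostly pale or red, with medians of 0.21 and 0.03.

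The direct comparison of the shRNAs held the most repair genes. At an unadjusted p under 0.05, 13 of 41 (31.7%) were lower with sh-MIR100HG-2 than with sh-MIR100HG-1, against 6.12% of all tested genes, and 0 were higher, against 3.34%. None of the 41 passed the adjusted test (smallest adjusted p 0.509 by edgeR's quasi-likelihood fit, 0% of all genes called). The median log2FC was -0.39, against -0.01 over all genes, and 33 of 41 were below 0 (80.5%, against 51.0%). Libraries did not overlap in 21 genes, with 20 lower with sh-MIR100HG-2 (48.8%, against 23.3% of all genes) and only FANCF higher (against 20.6%). By other tests at an adjusted p at or below 0.05, BRCA2 was called in the likelihood ratio test (0.592% of all genes called). DESeq2 called BRCA2, FANCM and BLM (0.711%). Without the filter on low counts, BRCA2, FANCM, GEN1, RBBP8 and WRN were called (3.18%), in a fit whose SE followed little of each gene's replicate spread.

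**Figure D3:**
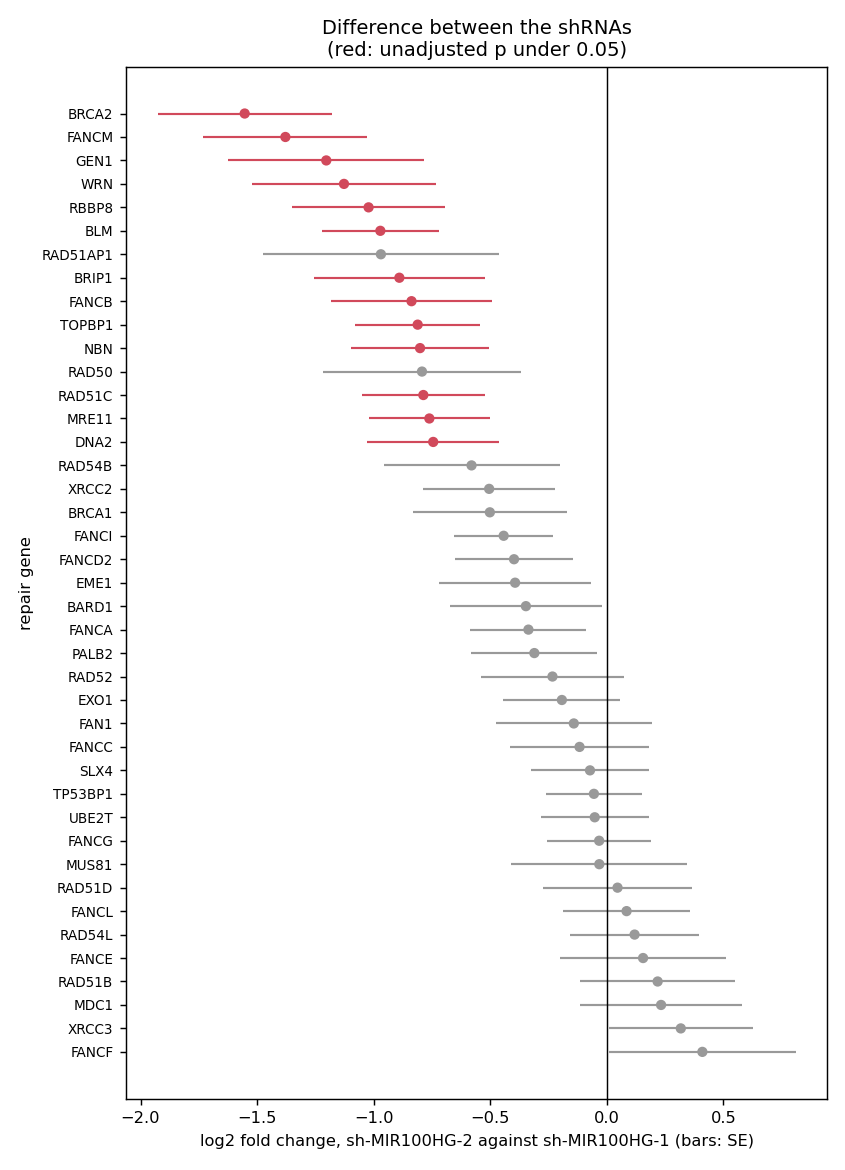
Log2FC of each of the 41 repair genes between the shRNAs (sh-MIR100HG-2 against sh-MIR100HG-1, bars are SE), sorted by size. The 13 genes with an unadjusted p under 0.05 (red) are all lower with sh-MIR100HG-2, and BRCA2 lies furthest out at -1.55.

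The number of these genes moved with each knockdown library that was left out, and most with replicate 2 of sh-MIR100HG-2. That library held the lowest value of 21 of the 41 repair genes (51.2%, against 24.4% of all tested genes). Replicate 1 of the same group held the lowest value of 8 (19.5%, against 14.7%) and the highest of 0 (against 14.6%). Without replicate 2 of sh-MIR100HG-2, 5 repair genes were lower at an unadjusted p under 0.05 (against 4.16% of all genes), and 4 of them, BLM, BRCA2, DNA2 and FANCM, were among the 13. Without replicate 2 of sh-MIR100HG-1, 7 were lower (against 3.76%), 6 of them among the 13. BRCA2, FANCM and BLM had an unadjusted p under 0.05 in each of the 6 fits that left out a library, and in all 16 alternative fits of this comparison.

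The genes that were lower with sh-MIR100HG-2 were also those of low GC content. The exons of the 41 had a median GC content of 42.3%, against 48.5% for all tested genes, and the 13 lay between 36.2% and 41.8%. Over the 41 genes the Spearman correlation of GC content with the log2FC between the shRNAs was 0.71, and over all 15372 genes 0.35, where the points share the same 4 libraries. In the third of genes with the lowest GC content (at or below 44.3%), 13 of 28 repair genes were lower at an unadjusted p under 0.05 (46.4%), against 11.7% of the 5124 genes there. Above that GC content 0 of 13 repair genes were, where the share of all genes was also low (3.20% at intermediate and 3.49% at the highest GC content). With the trend of the counts on GC content removed from each library, 8 of 41 were lower (against 4.64% of all genes), namely BLM, BRCA2, FANCM, GEN1, RAD51C, RBBP8, TOPBP1 and WRN, and the median log2FC was -0.26 against 0.03 for all genes.

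**Figure D4:**
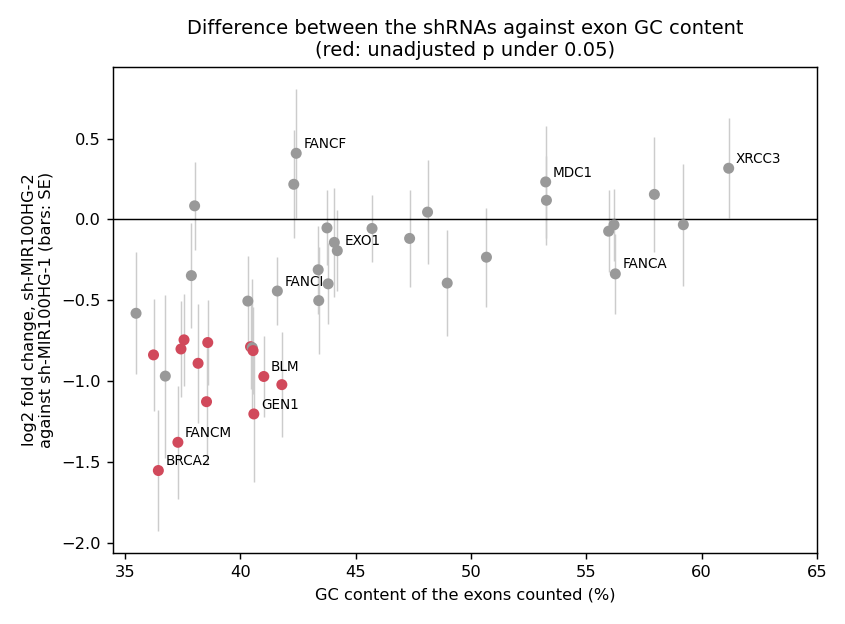
Log2FC between the shRNAs (sh-MIR100HG-2 against sh-MIR100HG-1, bars are SE) of the 41 repair genes against the GC content of their exons in percent. The 13 genes with an unadjusted p under 0.05 (red) lie between 36.2% and 41.8%, and the 21 genes of higher GC content lie between -0.50 and 0.41.

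Genes of the cell cycle were compared in the same fit, and 0 passed the adjusted test in any comparison. Of 54 genes of the G2/M phase list of the Seurat package, 20 were lower with sh-MIR100HG-2 than with sh-MIR100HG-1 at an unadjusted p under 0.05 (against 6.12% of all tested genes) and 0 were higher (against 3.34%), with a median log2FC of -0.42. Of 40 S-phase genes of the same source that are not repair genes of the list, 5 were lower (against the same 6.12%) and 0 higher, with a median of -0.17. Relative to the controls, the median of the G2/M genes was 0.09 and 0.20 (log2) in the sh-MIR100HG-1 libraries and -0.30 in each sh-MIR100HG-2 library. The part of cell cycle phase in the values of the repair genes was not tested.

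In the BRCA complexes, all 5 genes had a log2FC below 0 between the shRNAs, and 2, BRCA2 and BRIP1, had an unadjusted p under 0.05. BRCA2, a mediator of strand exchange, is gene ENSG00000139618.14_2 on the plus strand at chr13:32889611-32974403 (GRCh37, 29 exon blocks). It had 36.3 and 18.2 CPM with sh-TRC, 40.4 and 35.5 with sh-MIR100HG-1, and 15.8 and 10.03 with sh-MIR100HG-2. Both sh-MIR100HG-2 libraries were below all others, and the controls were far apart, one beside the sh-MIR100HG-1 libraries and the other near those of sh-MIR100HG-2. Its log2FC between the shRNAs was -1.55 ± 0.37, the furthest from 0 of the 41, with an unadjusted p of 0.00282 (adjusted p 0.509 by edgeR). With the GC trend removed it was -1.13, and without replicate 2 of sh-MIR100HG-2 it was -1.26. BRIP1, a helicase that binds BRCA1, had 54.4 and 32.8 CPM with sh-TRC, 61.7 and 47.04 with sh-MIR100HG-1, and 38.5 and 20.2 with sh-MIR100HG-2 (log2FC -0.89 ± 0.37). The shRNA groups did not overlap, and the lower control lay between the libraries of sh-MIR100HG-2.

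BRCA1, a ubiquitin ligase that promotes end resection, had 30.5 and 33.4 CPM with sh-TRC, 31.5 and 20.4 with sh-MIR100HG-1, and 23.3 and 13.4 with sh-MIR100HG-2. In each shRNA group replicate 1 was the higher, and the shRNA groups overlapped, with a log2FC of -0.50 ± 0.33 between them and of -0.55 ± 0.28 for both shRNAs against control. BARD1, the partner of BRCA1 in the ligase, ranged from 14.0 to 28.4 CPM, with its lowest value, like that of BRCA1, in replicate 2 of sh-MIR100HG-2. PALB2, the bridge between BRCA1 and BRCA2, had 15.4 and 18.8 CPM with sh-TRC, 19.7 and 14.7 with sh-MIR100HG-1, and 15.01 and 12.7 with sh-MIR100HG-2. The groups of PALB2 overlapped, and its log2FC between the shRNAs was -0.31 ± 0.27.

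The paralogs RAD51B, RAD51C, RAD51D, XRCC2 and XRCC3, which promote strand exchange, showed no common direction, with 3 above and 2 below 0 between the shRNAs. RAD51C had 21.9 and 15.3 CPM with sh-TRC, 22.8 and 24.1 with sh-MIR100HG-1, and 13.8 and 13.3 with sh-MIR100HG-2. The replicates of each shRNA lay close together, both of sh-MIR100HG-1 above and both of sh-MIR100HG-2 below both controls. Its log2FC between the shRNAs was -0.79 ± 0.26 (unadjusted p 0.0164, adjusted p 0.509), and -0.52 with the GC trend removed. RAD51B had 4.65 and 6.12 CPM with sh-TRC, 4.70 and 3.94 with sh-MIR100HG-1, and 4.56 and 5.49 with sh-MIR100HG-2, and its groups overlapped. XRCC3 had 29.8 and 32.2 CPM with sh-TRC, 28.0 and 26.9 with sh-MIR100HG-1, and 23.7 and 44.7 with sh-MIR100HG-2. The sh-MIR100HG-2 libraries of XRCC3 lay on either side of all others, and 76.7% of its exon length also belongs to another gene, mostly KLC1 on the opposite strand, so that its counts may hold reads of KLC1. XRCC2 ranged from 14.2 to 26.02 CPM and RAD51D from 10.2 to 17.2 CPM.

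Among the other genes of strand exchange, 0 of 4 had an unadjusted p under 0.05 in any comparison. RAD51AP1, which stimulates strand pairing, had replicates far apart, with 24.1 and 8.73 CPM in the sh-MIR100HG-2 libraries. It ranged up to 40.4 CPM, in replicate 1 of sh-MIR100HG-1. RAD54B had 7.26 and 4.66 CPM with sh-TRC, 5.92 and 8.05 with sh-MIR100HG-1, and 5.62 and 3.71 with sh-MIR100HG-2. The shRNA groups of RAD54B did not overlap, but 51.3% of its exon length is shared with FSBP on the same strand. RAD52, an annealing protein, ranged from 4.91 to 7.37 CPM, and RAD54L, a motor protein that remodels DNA during strand exchange, from 8.78 to 11.8 CPM.

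Of the 6 genes of end resection, all had a log2FC below 0 between the shRNAs, and 4 had an unadjusted p under 0.05 (1, RBBP8, with the GC trend removed). RBBP8, which starts resection with the MRE11 nuclease, had 46.5 and 25.2 CPM with sh-TRC, 46.0 and 56.1 with sh-MIR100HG-1, and 28.9 and 21.3 with sh-MIR100HG-2 (log2FC -1.02 ± 0.33). The shRNA groups did not overlap, and the lower control of RBBP8 lay between the libraries of sh-MIR100HG-2. MRE11 had 51.4 and 35.2 CPM with sh-TRC, 39.95 and 48.1 with sh-MIR100HG-1, and 28.0 and 24.0 with sh-MIR100HG-2 (log2FC -0.76 ± 0.26). Both sh-MIR100HG-2 libraries were below all other libraries for MRE11, as they were for its anchor NBN (log2FC -0.80 ± 0.30). DNA2, a nuclease and helicase of long-range resection, had 19.6 and 14.0 CPM with sh-TRC, 25.9 and 35.4 with sh-MIR100HG-1, and 16.6 and 20.02 with sh-MIR100HG-2 (log2FC -0.75 ± 0.28). Here the sh-MIR100HG-1 libraries were above both controls, while those of sh-MIR100HG-2 were not below them. With the GC trend removed, the log2FC of DNA2, NBN and MRE11 was -0.31, -0.37 and -0.41, each with an unadjusted p above 0.05. RAD50, the ATPase that tethers the ends, ranged from 18.9 CPM in replicate 2 of sh-MIR100HG-2 to 72.3 in replicate 1 of sh-TRC, with a log2FC of -0.79 ± 0.42. EXO1, described above, had the log2FC nearest to 0 of the 6, -0.19 ± 0.25.

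Both RecQ helicases, which unwind recombination intermediates, were among the 13. BLM (ENSG00000197299.10_1, plus strand, chr15:91260558-91359395 of GRCh37) had 12.3 and 12.6 CPM with sh-TRC, 16.8 and 17.8 with sh-MIR100HG-1, and 9.48 and 8.17 with sh-MIR100HG-2. The replicates of each group lay close together and the groups stood apart, with sh-MIR100HG-1 above and sh-MIR100HG-2 below the controls. BLM and RAD51C were the 2 of 41 with this order, which 1.19% of all tested genes showed. The log2FC of BLM between the shRNAs was -0.97 ± 0.25 (unadjusted p 0.00433, adjusted p 0.509 by edgeR), and -0.74 with the GC trend removed. WRN had 21.6 and 15.5 CPM with sh-TRC, 28.4 and 19.7 with sh-MIR100HG-1, and 14.99 and 7.03 with sh-MIR100HG-2 (log2FC -1.13 ± 0.39). Both sh-MIR100HG-2 libraries of WRN were below all others, but they differed from each other by more than the controls did.

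**Figure D5:**
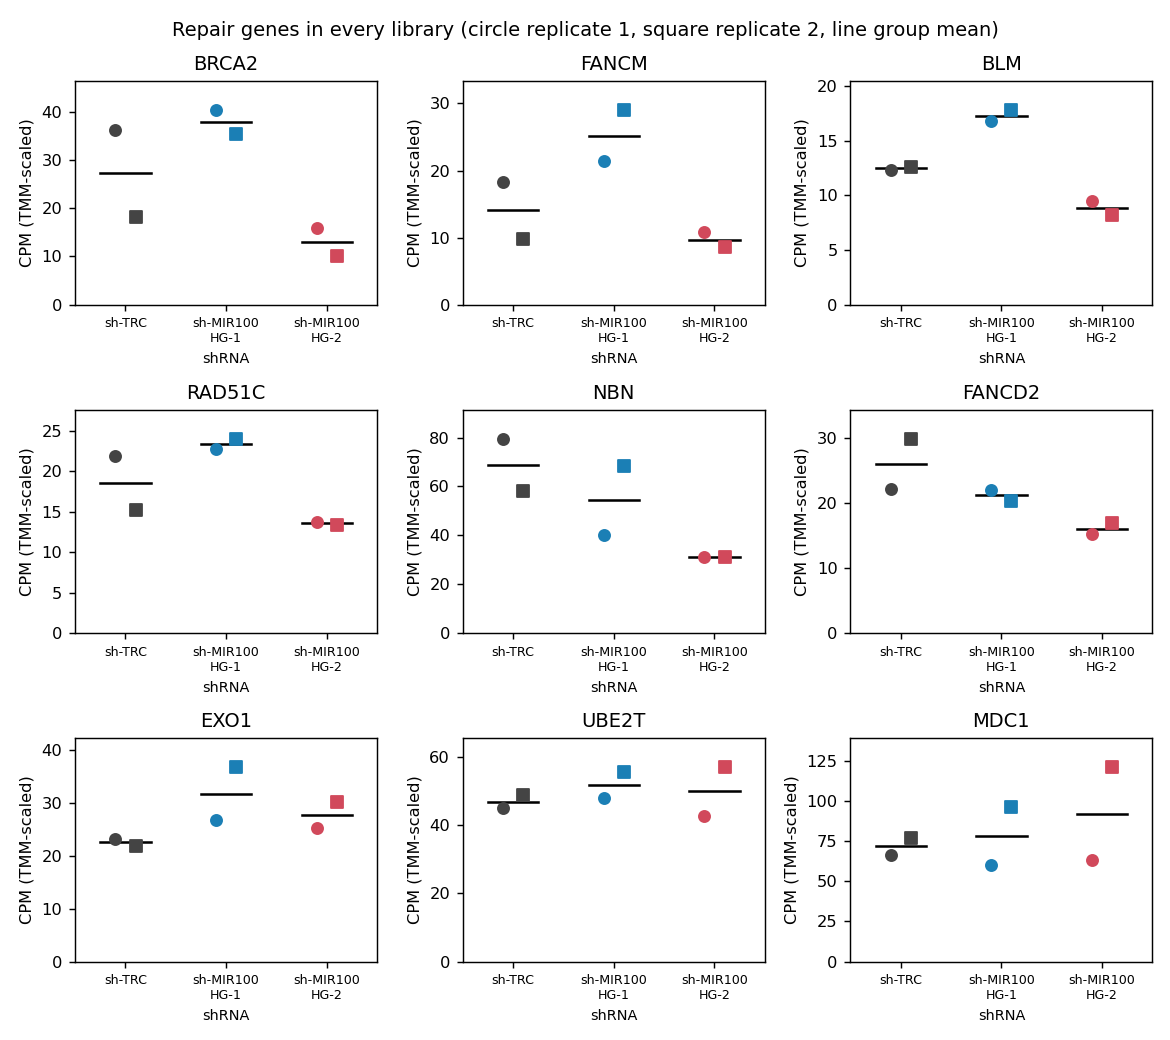
CPM (TMM-scaled, axes from 0) of 9 repair genes in every library, with circles for replicate 1, squares for replicate 2 and a line at the mean of each group. For BLM the groups are apart, at 12.3 to 12.6, 16.8 to 17.8 and 8.17 to 9.48 CPM, while UBE2T overlaps between all groups and the sh-MIR100HG-2 libraries of MDC1 span 63.0 to 121 CPM.

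The Fanconi core complex with its ubiquitin-conjugating enzyme was the largest role, with 9 genes, of which 2, FANCM and FANCB, had an unadjusted p under 0.05 between the shRNAs. FANCM (ENSG00000187790.10_2, plus strand, chr14:45605143-45670093 of GRCh37) is the translocase that brings the complex to DNA. It had 18.3 and 9.86 CPM with sh-TRC, 21.4 and 29.0 with sh-MIR100HG-1, and 10.8 and 8.59 with sh-MIR100HG-2. Both sh-MIR100HG-1 libraries were above both controls, and those of sh-MIR100HG-2 lay on either side of the lower control. Its log2FC between the shRNAs was -1.38 ± 0.35 (unadjusted p 0.00401, adjusted p 0.509), and -0.97 with the GC trend removed. FANCB, which stabilises the ligase subunit FANCL, had 7.56 and 5.95 CPM with sh-TRC, 8.70 and 7.16 with sh-MIR100HG-1, and 5.45 and 3.44 with sh-MIR100HG-2 (log2FC -0.84 ± 0.35). With the GC trend removed its log2FC was -0.41 and its unadjusted p 0.173.

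The other core genes had an unadjusted p above 0.05 between the shRNAs. FANCA, a subunit whose loss is the most common cause of Fanconi anaemia, had 42.2 and 44.4 CPM with sh-TRC, 52.6 and 52.1 with sh-MIR100HG-1, and 33.0 and 49.9 with sh-MIR100HG-2 (log2FC -0.34 ± 0.25). Its shRNA groups did not overlap, and without replicate 2 of sh-MIR100HG-2 its log2FC was -0.66 with an unadjusted p of 0.0438 by edgeR. The replicates agreed in each group but that of sh-MIR100HG-2, and 23.6% of its exon length is shared with ZNF276 on the opposite strand. FANCG had 52.5 and 63.1 CPM with sh-TRC, 68.1 and 58.8 with sh-MIR100HG-1, and 56.7 and 67.3 with sh-MIR100HG-2, and its groups overlapped (log2FC -0.03 ± 0.22). UBE2T had 44.8 and 48.8 CPM with sh-TRC, 47.8 and 55.6 with sh-MIR100HG-1, and 42.7 and 56.9 with sh-MIR100HG-2 (log2FC -0.05 ± 0.23, and 0.079 with the GC trend removed). FANCF had 3.69 and 6.34 CPM with sh-TRC, 5.09 and 3.19 with sh-MIR100HG-1, and 5.91 and 5.11 with sh-MIR100HG-2, and was the only repair gene with both sh-MIR100HG-2 libraries above both of sh-MIR100HG-1, the closest pair by less than 1% (log2FC 0.41 ± 0.40). FANCC ranged from 12.2 to 19.5 CPM, FANCE from 16.2 to 35.4 and FANCL, the ligase subunit, from 7.47 to 8.78.

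FANCD2 and FANCI, the pair to which the core complex attaches ubiquitin, differed in their values. FANCI had 64.3 and 60.1 CPM with sh-TRC, 72.4 and 78.6 with sh-MIR100HG-1, and 50.1 and 61.0 with sh-MIR100HG-2. The sh-MIR100HG-1 libraries of FANCI were above both controls, where those of FANCD2 were below them. Between the shRNAs the log2FC was -0.44 ± 0.21 for FANCI and -0.40 ± 0.25 for FANCD2, and the shRNA groups overlapped for neither gene.

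Of the nucleases, GEN1, which cuts Holliday junctions, had an unadjusted p under 0.05. It had 19.1 and 10.98 CPM with sh-TRC, 17.8 and 13.3 with sh-MIR100HG-1, and 9.13 and 4.39 with sh-MIR100HG-2 (log2FC -1.20 ± 0.42, and -0.99 with the GC trend removed). Both sh-MIR100HG-2 libraries were below all others, and in each group replicate 1 was the higher. MUS81, the catalytic subunit of another junction nuclease, split by replicate number in both knockdown groups, with 23.6 and 42.7 CPM with sh-MIR100HG-1 and 21.8 and 43.1 with sh-MIR100HG-2, while the controls had 42.8 and 41.2. Its partner EME1 ranged from 3.64 to 6.70 CPM, the scaffold SLX4 from 24.3 to 33.4, and FAN1, a nuclease that acts on crosslinks, from 9.15 to 16.0.

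The damage mediators, which bring checkpoint and repair proteins to breaks, gave 1 gene of 3. TOPBP1, an activator of the ATR kinase, had 54.0 and 34.9 CPM with sh-TRC, 63.2 and 70.7 with sh-MIR100HG-1, and 42.4 and 33.8 with sh-MIR100HG-2 (log2FC -0.81 ± 0.27, and -0.56 with the GC trend removed). Both sh-MIR100HG-1 libraries were above both controls. MDC1, which binds phosphorylated histone H2AX, had 66.5 and 77.1 CPM with sh-TRC, 60.3 and 96.5 with sh-MIR100HG-1, and 63.0 and 121 with sh-MIR100HG-2 (log2FC 0.23 ± 0.35). In both knockdown groups replicate 2 was above and replicate 1 below both controls. TP53BP1, which holds back end resection, was the steadiest gene of this role, with 57.9 and 54.9 CPM with sh-TRC, 54.2 and 63.0 with sh-MIR100HG-1, and 56.2 and 56.6 with sh-MIR100HG-2. Its log2FC between the shRNAs was -0.06 ± 0.21, and 28.7% of its exon length is shared with TUBGCP4 on the opposite strand.

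Other genes of the pathway were compared in the same fit. Of 62 listed, 61 were tested, and 0 passed the adjusted test in any comparison. Between the shRNAs 11 were lower with sh-MIR100HG-2 at an unadjusted p under 0.05 (18.0%, against 6.12% of all tested genes) and 0 higher, with a median log2FC of -0.20. Among them were both kinases at the head of the damage response, ATM (log2FC -1.19 ± 0.40) and ATR (-0.69 ± 0.27), the polymerase of alternative end joining, POLQ (-1.04 ± 0.29), and USP1, which removes ubiquitin from FANCD2 (-0.98 ± 0.27). With sh-MIR100HG-2 against control, 0 of the 61 were lower (against 5.15% of all tested genes) and 0 higher (against 3.71%). With sh-MIR100HG-1 against control 3 were higher (against 3.1%) and 0 lower (against 3.77%).

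Of the 7 genes with an E2F word in the promoter, GEN1 and TOPBP1 were among the 13, and the word was in 2 of the 10 of these for which a promoter was at hand. The word of sh-MIR100HG-2 was in the 3′UTR of 3 of the 13, BRCA2, MRE11 and TOPBP1. Exons were shared with another annotated gene in 17 of the 41, over more than 10% of the length in 10, and whether the reads were counted by strand is not given in the sources used here. The 13 were free of such sharing except MRE11 (2.93%) and GEN1 (0.905%).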

How the data were processed

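RNA-seq libraries of MDA-MB-231 cells (6, in 3 groups of 2) were compared. The authors deposited raw counts per gene, not normalized. By the methods, reads were mapped to GRCh37 with STAR (2.5.2a in the submitters' processing notes), with a GENCODE annotation of that build, and counted over exons with featureCounts. Strandedness is not given in the sources used here. Symbols and coordinates were matched by identifier to an annotation of the same build (26966 of 27745 genes). The replicates are called biological by the study. The p-values rest on the spread between them, which edgeR pools in part over genes (5.37 prior degrees of freedom beside 3 residual).

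A gene was dropped where 3 or more of the 6 libraries had fewer than 5 counts (12373 genes), which left 15372 to test. Counts were scaled by TMM and fitted with edgeR 4.0.16 (glmQLFit, glmQLFTest) in R 4.3.3, in 1 model of 3 groups with 3 residual degrees of freedom, and the Benjamini-Hochberg adjustment ran over all of them. The common biological coefficient of variation was 27.8%. As the study does, a log2FC beyond 2 in size was also looked for, and 0 repair genes reached it in any comparison. The fits were tested on simulated data. The members, roles and gene lists were chosen with earlier results of these data known. Named with all values were 12 members set by name, the 3 highest and 3 lowest by level per length, those at an unadjusted p under 0.05 in any comparison, and the 3 with the smallest p in each direction for both shRNAs against control and between the shRNAs. The alternatives were the edgeR likelihood ratio test and bias-adjusted fit, DESeq2 1.42.0, RLE size factors, no filter, the replicate number as a block, each library left out and, for a single shRNA or pair, only the compared groups. Removal of the GC trend (lowess, span 0.3), alone or with that on length, and a block with the control numbers exchanged were added after the data were seen.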

Additional observations from a re-analysis of the deposited data

Results flagged for a closer look

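For 2 repair genes, both libraries of sh-MIR100HG-1 were above both controls and both of sh-MIR100HG-2 were below them, as for 1.19% of all tested genes. For BLM the log2FC between the shRNAs was -0.97 ± 0.25 (unadjusted p 0.00433, adjusted p 0.509 by edgeR's quasi-likelihood test), with 12.3 and 12.6 CPM in the controls between 16.8 and 17.8 and 9.48 and 8.17. For RAD51C it was -0.79 ± 0.26 (unadjusted p 0.0164, adjusted p 0.509). The difference itself was tested by this contrast and did not pass the adjusted threshold for either gene. By DESeq2 that of BLM had an adjusted p of 0.0425.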

How the results depend on the processing

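With 2 libraries a group and 3 residual degrees of freedom, the adjusted test called 0 repair genes in every comparison of the reported fit, and the counts below rest on unadjusted p-values. Adjusted calls appeared between the shRNAs in the likelihood ratio test (1), with DESeq2 (3) and without the filter (5), and for sh-MIR100HG-2 against control without the filter (3). The SE of the fit without the filter followed little of each gene's replicate spread. Of the members at an unadjusted p under 0.05, those for both shRNAs against control (2) became 1, without FANCD2, in the likelihood ratio test, the bias-adjusted fit and with RLE factors. With the replicate block they became 5 for both shRNAs against control and 10 for sh-MIR100HG-2 against control (reported 6), and 15 in place of 13 between the shRNAs, with 0 adjusted calls. The numbers were not taken as pairs, since same-numbered deviations correlated at -0.213 and 0.0219 between the controls and each shRNA, although at 0.497 between the shRNAs. With the control numbers exchanged, the number for both shRNAs was 4. With the GC trend removed, alone or with that on length, the 13 between the shRNAs became 8, and the median of -0.39 became -0.26 in both. With single libraries left out, the unadjusted counts ranged from 1 to 4 for both shRNAs against control, 0 to 5 for sh-MIR100HG-1, 2 to 11 for sh-MIR100HG-2 and 5 to 16 between the shRNAs, and the medians from -0.18 to -0.01, 0.02 to 0.17, -0.43 to -0.17 and -0.44 to -0.33, with 0 adjusted calls throughout. Over 40 log2FC of named genes, direction and side of the adjusted threshold were kept in 609 of 634 refits. In 12 the threshold was passed and in 13 the sign changed. No named gene passed that threshold in the reported fit, so its side was nearly fixed in advance. Many of the 40 were also chosen for a small p. The number kept therefore says little about the unadjusted calls. With libraries left out, the log2FC of MDC1 ranged from -0.038 to 0.44 for both shRNAs against control. Between the shRNAs the ranges were -0.31 to 0.63 for MDC1, -0.21 to 0.70 for XRCC3, -0.40 to 0.069 for EXO1, -0.16 to 0.084 for FANCG, -0.27 to 0.14 for UBE2T and -0.16 to 0.071 for TP53BP1. With the GC trend removed UBE2T was 0.079, and with those on GC and length it was 0.092 and TP53BP1 0.031. With RLE scaling, 19 genes in place of 20 did not overlap between the shRNAs on the lower side and 2 in place of 1 on the higher, and without division by length UBE2T ranked 7 in place of 1.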
